A study of Mus musculus with 10 samples.

Results

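Diacylglycerol kinases, RasGRP exchange factors and protein kinase C isoforms were examined in mouse naive CD4 T cells as a set of 10 genes. They were chosen by name, with earlier results of these data known. The set holds the kinases Dgka, Dgkz and Dgkd, the exchange factors Rasgrp1 and Rasgrp2, and the protein kinase C genes Prkcq, Prkca, Prkcb, Prkcd and Prkch. All 10 were found among the 45321 genes of the tables and all 10 passed the filter on low counts, which kept 14417 genes. The cells were T cells of C57BL/6 mouse spleen sorted as CD4+CD62L+CD69-, and the labels name them naive. Unstimulated vehicle cells (n = 3 libraries) received DMSO for 1 h and no stimulus, and unstimulated Compound 10 cells (n = 2) received 12.5 µM of the compound in place of the vehicle. Stimulated vehicle cells (n = 2) and stimulated Compound 10 cells (n = 3) had the same exposure followed by 10 nM PMA and 1 µM ionomycin for 2 h. The series describes Compound 10 as an inhibitor of the NFAT:AP-1 transcription complex, and the question its design poses is how RNA levels differ between compound and vehicle. The labels do not state whether libraries of a group are separate mice or cultures, so every p-value measures the spread between these libraries, which may be technical.

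Diacylglycerol is the membrane lipid that phospholipase C releases when the T cell receptor is engaged. A C1 domain draws several proteins to it: RasGRP1 loads Ras with GTP, and the conventional (alpha, beta) and calcium-independent (delta, eta, theta) protein kinases C phosphorylate their substrates. RasGRP2, the other exchange factor of the set, loads Rap1 and is not taken here as a sensor of the lipid. Diacylglycerol kinases end the signal by turning the lipid into phosphatidic acid, and the alpha and zeta forms are known as brakes on T cell activation whose loss favours activation over anergy. PMA binds the C1 domains of RasGRP1 and protein kinase C in place of diacylglycerol and is not a substrate of the diacylglycerol kinases. The stimulus used here thus enters the pathway at the level of RasGRP1 and protein kinase C, with ionomycin supplying calcium.

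Because the compound is described as acting on NFAT:AP-1, the promoters of the members were searched for the letters of both factors' sites. RefSeq windows of 250 bases before a start site (build GRCm38.p6) were at hand for 9 of the 10 members, 15 windows in all. The AP-1 letters TGANTCA were in 0 of the 15 windows, against 6.75% of all 32851 windows of that length. The NFAT core GGAAA, on either strand, was in 7 of the 15, against 55.6% of all windows. A match in such a window is a description of letters and not a bound site. Sequences are shown for a kinase gene that Compound 10 raised in stimulated cells (Dgka) and for another kinase gene with a core (Dgkd), each 5′ to 3′ on the gene's own strand, with the NFAT core or its reverse complement in capitals.
Dgka, chr10:128745085-128745334, minus strand: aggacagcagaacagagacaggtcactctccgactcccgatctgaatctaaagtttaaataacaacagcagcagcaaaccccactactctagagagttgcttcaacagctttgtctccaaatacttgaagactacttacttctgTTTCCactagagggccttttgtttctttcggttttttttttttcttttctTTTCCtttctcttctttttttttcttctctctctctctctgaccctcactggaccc
Dgkd, chr1:87853037-87853286, plus strand: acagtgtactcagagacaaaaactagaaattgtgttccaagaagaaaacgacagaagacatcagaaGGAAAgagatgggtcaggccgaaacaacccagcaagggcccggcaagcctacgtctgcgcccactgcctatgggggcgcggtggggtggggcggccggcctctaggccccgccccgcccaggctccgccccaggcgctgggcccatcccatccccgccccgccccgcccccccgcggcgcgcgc
The Dgka window shown holds 2 cores, 106 and 56 bases before the start, and the Dgkd window holds 1, 184 bases before it. Dgka has other windows, before other starts, with 1, 0 and 2 cores. The windows of Prkcd, which Compound 10 lowered in stimulated cells, hold 0. Among the other genes called there, the windows of Prkcq (raised) and Prkca (lowered) hold 0 as well. Dgkz and Rasgrp2, both raised, each have a window with 0 and a window with 1. Whether core numbers go with the direction of change was not tested.

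The libraries held 10694591 to 33486259 estimated counts. Levels of 1 gene across libraries are given as CPM, a library's counts rescaled to a common total with TMM, with factors of 0.731 to 0.850 for stimulated libraries and 1.20 to 1.34 for the others. With library totals alone the median gene fell by 0.83 on the log2 scale upon stimulation under vehicle, so changes upon stimulation are read relative to the other genes. T cell identity markers summed to 2724 to 3983 CPM of the library total in all libraries, erythroid markers to at most 0.643, CD8 markers to at most 8.60 and NK markers to at most 12.1. Regulatory T cell markers summed to 168 to 217 in stimulated vehicle libraries, where Il2ra leads the sum, and to 82.9 to 121 elsewhere. Memory or effector markers summed to 63.7 to 92.4 in unstimulated vehicle, 129 to 146 in unstimulated Compound 10, 177 to 194 in stimulated vehicle and 114 to 132 in stimulated Compound 10 libraries. In bulk RNA, fewer cells of a kind and less RNA per cell cannot be told apart, and the part of these markers in the results was not tested.

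To compare the genes with each other, deposited TPM values, which are per transcript length, were summed per gene. In unstimulated vehicle cells Rasgrp2 (369 ± 62.5 TPM, SD, n = 3) and Dgka (316 ± 99.1) led, and their libraries overlapped. Prkcd (134 ± 30.1) and Prkch (110.0 ± 27.1) followed, also overlapping each other. Prkca (47.5 ± 5.59), Prkcq (43.1 ± 10.2), Dgkd (42.3 ± 16.2), Dgkz (28.6 ± 4.89), Rasgrp1 (26.1 ± 7.55) and Prkcb (21.1 ± 6.82) came last, and neighbours in this stretch of the order overlapped. In stimulated vehicle cells Dgka (118 ± 20.1 TPM, n = 2), Rasgrp2 (100.5 ± 29.4), Prkcd (97.6 ± 1.06) and Prkch (93.1 ± 2.73) were the top 4. In stimulated Compound 10 cells Rasgrp2 (313 ± 25.9 TPM, n = 3) and Dgka (312 ± 37.9) led, followed by Prkch (108 ± 11.7) and Prkcd (82.5 ± 4.27). Short transcripts carry much of the TPM of Rasgrp2 and Prkca. On CPM per kilobase of the longest coding transcript, Dgka led unstimulated vehicle cells at 174, Rasgrp2 stood at 75.4, and Prkca was near the bottom at 6.45 beside Dgkz at 6.43. On that scale Dgka also led stimulated vehicle cells at 113, with Prkch at 88.7, Prkcd at 75.8 and Rasgrp2 well below them at 28.4. In stimulated Compound 10 cells Dgka stood at 280.0, Prkch at 97.7, Rasgrp2 at 87.5 and Prkcd at 53.5, so the place of Rasgrp2 in the order depends on the measure.

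Summed over each class, TPM in unstimulated vehicle cells was 387 ± 114 (n = 3) for the kinases, 395 ± 70.04 for the exchange factors and 356 ± 68.8 for protein kinase C. In stimulated vehicle cells (n = 2) the kinases summed to 178 ± 18.7, the exchange factors to 136 ± 31.3 and protein kinase C to 286 ± 12.5. In stimulated Compound 10 cells (n = 3) the sums were 390.2 ± 49.5, 374 ± 30.8 and 308 ± 18.6. These sums are descriptions without a test, and the short Rasgrp2 transcripts weigh in those of the exchange factors. Deposited TPM carries no TMM factor, so the sums compare classes within a group and not 1 class between groups. From unstimulated to stimulated vehicle cells Prkch went from 110.0 to 93.1 TPM but from 218 to 315 CPM with TMM. Prkcd went from 134 to 97.6 TPM but from 170 to 216 CPM. For the other protein kinase C genes both measures moved the same way.

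**Figure D1:**
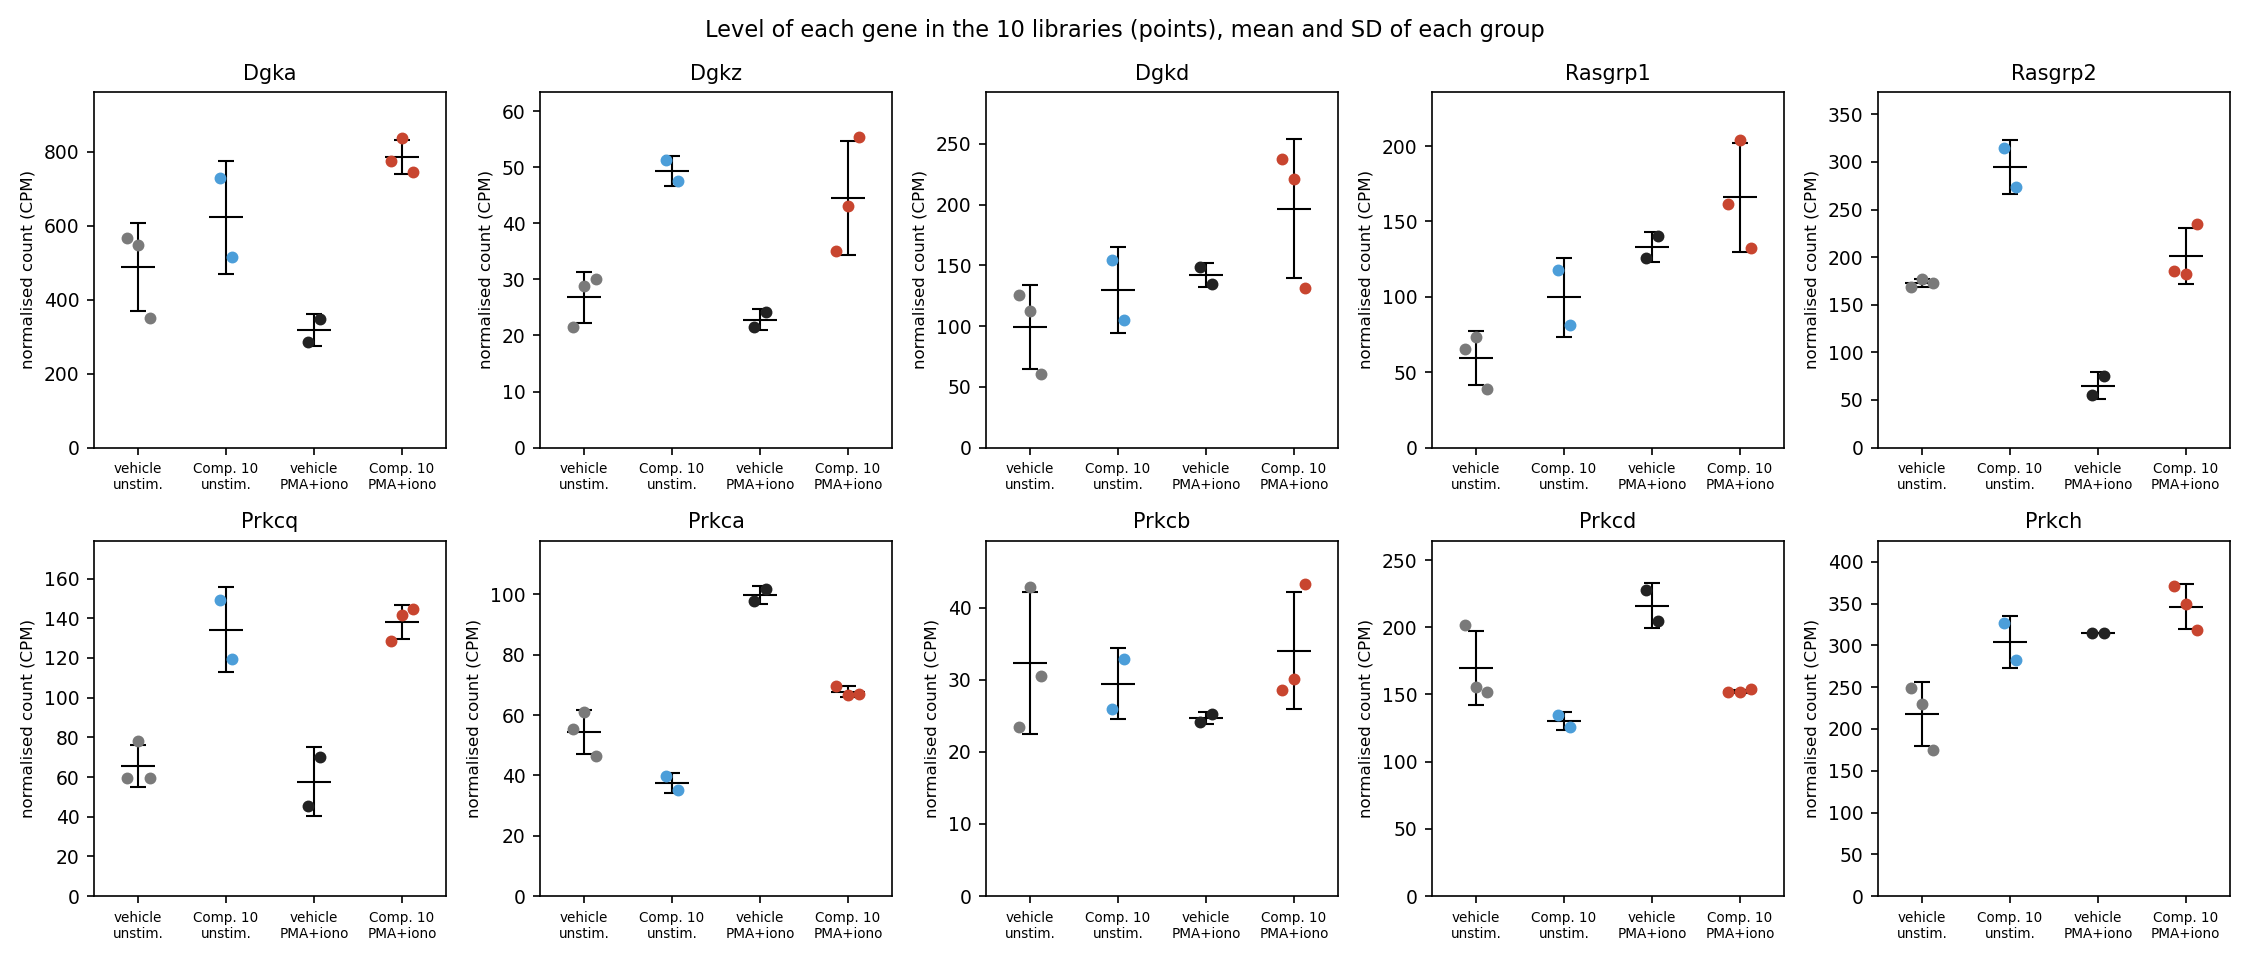
Level of each of the 10 genes in each library, in CPM with TMM factors (vertical axis, from 0), for the 4 groups on the horizontal axis; points are libraries and bars are group means with SD. Rasgrp2 and Dgka are lowest in stimulated vehicle cells (65.2 and 318 CPM on average), while Prkca is highest there (99.8 CPM).

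Dgka encodes diacylglycerol kinase alpha, the calcium-responsive form that is abundant in resting T cells. It lies at chr10:128720134-128744855 on the minus strand (GENCODE M21, mm10). Its CPM was 567, 547 and 350.3 in the unstimulated vehicle libraries, 730.3 and 515 in unstimulated Compound 10, 287 and 349 in stimulated vehicle, and 776, 837 and 745 in stimulated Compound 10 libraries. The stimulated Compound 10 libraries all lay above both stimulated vehicle libraries, and the stimulated vehicle libraries lay below all of the unstimulated vehicle ones, the nearest pair (350.3 and 349) by little. Compound 10 raised Dgka in stimulated cells 2.47-fold (log2 fold change 1.31 ± 0.23, SE, adjusted p = 0.00198, edgeR's quasi-likelihood F test). This call held under all 14 alternatives, with log2 values of 1.17 to 1.47 and adjusted p from 1.27e-09 to 0.0386. In unstimulated cells the difference with the compound was 0.35 ± 0.22 (adjusted p = 0.371) and the libraries overlapped.

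Stimulation lowered Dgka under vehicle (log2 fold change -0.62 ± 0.22, adjusted p = 0.0468). That call was lost in 7 of 14 alternatives, including the removal of unstimulated vehicle library 1 or 2 (-0.49, adjusted p = 0.137, and -0.54, 0.126) or of stimulated vehicle library 1 or 2 (-0.49, 0.276, and -0.79, 0.0836). With Compound 10 the stimulated libraries were above the unstimulated ones, with a log2 difference of 0.34 ± 0.22 that missed the threshold (adjusted p = 0.302) and that was -0.26 with library totals alone. Dgka shares 105 exonic bases with the antisense gene Pmel, which held 25 to 453 counts per library, and the library kit does not mark strand.

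Dgkz encodes diacylglycerol kinase zeta, which holds down Ras signalling below the T cell receptor (chr2:91932824-91975864, minus strand). Its CPM was 21.5, 28.8 and 30.1 in unstimulated vehicle, 51.3 and 47.5 in unstimulated Compound 10, 21.5 and 24.1 in stimulated vehicle, and 35.2, 43.0 and 55.4 in stimulated Compound 10 libraries. Every Compound 10 library lay above every vehicle library, stimulated or not. The compound raised Dgkz 1.95-fold in stimulated cells (0.96 ± 0.23 on the log2 scale, adjusted p = 0.0101) and 1.84-fold in unstimulated cells (0.88 ± 0.21, adjusted p = 0.0298). In stimulated cells the call was lost without stimulated vehicle library 1 (0.88, adjusted p = 0.105) or 2 (1.06, 0.058), and over protein-coding transcripts only the value was 1.70 (adjusted p = 0.0102). In unstimulated cells it was lost in 7 of 14 alternatives, among them the removal of vehicle library 1 (0.76, 0.0844) or 2 (0.93, 0.0638) or Compound 10 library 1 (0.82, 0.109) or 2 (0.94, 0.104). Stimulation gave -0.23 ± 0.22 under vehicle (adjusted p = 0.447, 95% interval -0.72 to 0.26) and -0.15 ± 0.22 with the compound (adjusted p = 0.669), neither past the threshold. With library totals alone both were called (-1.005, 0.00456, and -0.74, 0.0229), and over protein-coding transcripts only the second was 0.45. Dgkz shares 222 exonic bases with the antisense gene Gm9821 (12.2 to 27.5 counts).

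Dgkd encodes diacylglycerol kinase delta, a form with a pleckstrin homology and a sterile alpha motif domain (chr1:87853287-87945180, plus strand). Its CPM was 125, 112 and 60.4 in unstimulated vehicle, 155 and 105 in unstimulated Compound 10, 149 and 135 in stimulated vehicle, and 237, 221 and 131 in stimulated Compound 10 libraries. The third library was the lowest in both 3-library groups, and the Compound 10 and vehicle libraries overlapped in both states. No contrast passed the test for Dgkd: 0.47 ± 0.32 with the compound in stimulated cells (adjusted p = 0.334, 95% interval -0.24 to 1.18), 0.39 ± 0.32 in unstimulated cells (0.511), 0.52 ± 0.32 upon stimulation under vehicle (0.225, -0.27 with library totals alone) and 0.60 ± 0.32 with the compound (0.203). The interval in stimulated cells spans both no change and a 2-fold rise. With a block for runs of library index numbers, described with the interaction, Dgkd was called higher with the compound in stimulated cells (0.70, adjusted p = 0.00129) and in unstimulated cells (0.61, 0.00742), and upon stimulation with the compound (0.40, 0.0253). The compound's values within single runs were 0.67 and 0.72 in stimulated and 0.46 and 0.79 in unstimulated cells. Dgkd shares 62 exonic bases with the antisense gene Usp40 (55.5 to 423 counts).

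Rasgrp2 encodes the Rap1 exchange factor that serves integrin activation in T cells and platelets (chr19:6399340-6415216, plus strand). Its CPM was 169, 177 and 173 in unstimulated vehicle, 314 and 274 in unstimulated Compound 10, 55.0 and 75.4 in stimulated vehicle, and 185, 183 and 235 in stimulated Compound 10 libraries. The stimulated vehicle libraries were the lowest of all 10, and the stimulated Compound 10 libraries lay above every unstimulated vehicle library. Stimulation lowered Rasgrp2 2.65-fold under vehicle (log2 fold change -1.41 ± 0.18, adjusted p = 0.000116), a call that held under all 14 alternatives (-2.18 to -1.21). The compound raised it 3.08-fold in stimulated cells (1.62 ± 0.19, adjusted p = 0.000167), again under all 14 alternatives (1.41 to 1.88). These results share the stimulated vehicle libraries.

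In unstimulated cells the compound raised Rasgrp2 1.70-fold (0.77 ± 0.17, adjusted p = 0.0220). The call was lost without vehicle library 1 (0.76, 0.0607) or 2 (0.78, 0.0575) or Compound 10 library 1 (0.66, 0.108) or 2 (0.87, 0.0651), and over protein-coding transcripts only (0.59, 0.0517). With the compound present, stimulation lowered Rasgrp2 by less (-0.55 ± 0.17, adjusted p = 0.0340), and the difference between the drops is the interaction given further on. That call was lost without unstimulated Compound 10 library 1 (-0.45, 0.169) or 2 (-0.67, 0.0594) or stimulated Compound 10 library 1 (-0.49, 0.107) or 2 (-0.48, 0.111), and over protein-coding transcripts only (-0.35, 0.149). Platelet markers, whose cells also express Rasgrp2, summed to 11.6 to 14.0 CPM of library total in unstimulated vehicle, 2.72 to 3.16 in unstimulated Compound 10, 3.84 to 6.11 in stimulated vehicle and 4.07 to 6.04 in stimulated Compound 10 libraries. Of the 8 markers 2 to 5 were detected in a library. Itga2b made up most of the sum and Gp6 was at 0 in all libraries. Gp9 moved otherwise than the sum and was highest in stimulated Compound 10 libraries (0.646 to 0.873). The part of platelet RNA in the Rasgrp2 values was not tested.

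Rasgrp1 encodes the Ras exchange factor that links diacylglycerol to ERK in T cells (chr2:117279993-117343001, minus strand). Its CPM was 65.5, 73.6 and 38.9 in unstimulated vehicle, 118 and 81.1 in unstimulated Compound 10, 126 and 140.3 in stimulated vehicle, and 162, 204 and 132 in stimulated Compound 10 libraries. Here the stimulated libraries were the high ones under vehicle, with no overlap with the unstimulated. Stimulation raised Rasgrp1 2.25-fold under vehicle (1.17 ± 0.27, adjusted p = 0.00502). Among 14 alternatives the call was lost only with library totals alone (0.39, adjusted p = 0.287), where Rasgrp1 still lay 1.22 above the median gene. With Compound 10 the rise was 0.74 ± 0.28 and missed the threshold (adjusted p = 0.0729), although the libraries did not overlap, and 6 alternatives called it. The compound made a difference of 0.32 ± 0.27 in stimulated cells (adjusted p = 0.459, 95% interval -0.29 to 0.92, libraries overlapping) and of 0.75 ± 0.27 in unstimulated cells (adjusted p = 0.116, libraries not overlapping). With the index-run block both were called (0.50, 0.0176, and 0.82, 0.00315).

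The ratio of Rasgrp2 to Rasgrp1 counts within a library does not depend on library scaling. This pair, and the pair of Prkcq and Prkcd below, were chosen after their values were seen, so the ratios are descriptions. The ratio was 2.58, 2.41 and 4.44 in unstimulated vehicle and 2.66 and 3.38 in unstimulated Compound 10 libraries. It was 0.435 and 0.537 in stimulated vehicle and 1.15, 0.895 and 1.77 in stimulated Compound 10 libraries. The exchange factor with more counts was Rasgrp2 in every unstimulated library and Rasgrp1 in both stimulated vehicle libraries, and the stimulated Compound 10 libraries lay between the stimulated vehicle and the unstimulated ones. Counts are not corrected for length, and the longest coding transcript has 5229 bases for Rasgrp1 and 2296 for Rasgrp2. In stimulated vehicle cells Rasgrp2 stayed above Rasgrp1 in TPM (100.5 against 35.8). Per kilobase of that transcript the averages were 28.4 and 25.5, with overlapping libraries. The ratio therefore does not show which exchange factor had more transcripts.

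**Figure D2:**
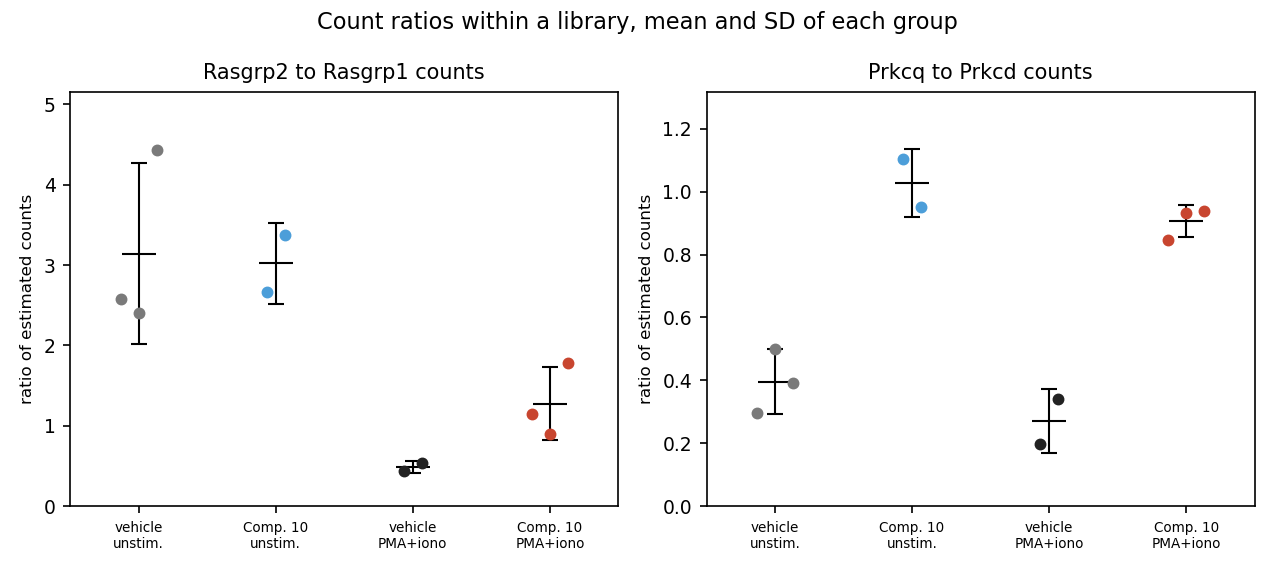
Ratio of estimated counts between a pair of genes in each library, on a linear axis from 0, for Rasgrp2 over Rasgrp1 and for Prkcq over Prkcd; points are libraries, set out by group with the group mean and SD. The Rasgrp2 to Rasgrp1 ratio is 0.435 and 0.537 in stimulated vehicle libraries and at least 2.41 in every unstimulated library, and the Prkcq to Prkcd ratio is 0.199 to 0.500 in vehicle and 0.847 to 1.10 in Compound 10 libraries.

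Prkcq encodes protein kinase C theta, the isoform that carries the T cell receptor signal to NF-kB through BCL10 and MALT1 (chr2:11172108-11301222, plus strand). Its CPM was 59.4, 78.0 and 59.6 in unstimulated vehicle, 149 and 119 in unstimulated Compound 10, 45.3 and 69.9 in stimulated vehicle, and 128, 141 and 145 in stimulated Compound 10 libraries. All 5 Compound 10 libraries lay above all 5 vehicle libraries. The compound raised Prkcq 2.39-fold in stimulated cells (1.26 ± 0.22, adjusted p = 0.00169), under all 14 alternatives (0.98 to 1.62). In unstimulated cells it raised Prkcq 2.05-fold (1.03 ± 0.20, adjusted p = 0.0129), a call lost without Compound 10 library 1 (0.86, 0.0746) and with only those groups in the fit (1.05, 0.0583). Stimulation gave -0.18 ± 0.21 under vehicle (adjusted p = 0.523, 95% interval -0.64 to 0.27) and 0.04 ± 0.21 with the compound (0.911, -0.41 to 0.49), and both intervals leave out a 2-fold change relative to the other genes. With library totals alone they were -0.96 (adjusted p = 0.00583) and -0.55.

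Prkca encodes protein kinase C alpha, a conventional isoform that needs calcium as well as diacylglycerol (chr11:107933387-108343928, minus strand). Its CPM was 55.4, 60.9 and 46.4 in unstimulated vehicle, 39.7 and 35.1 in unstimulated Compound 10, 97.7 and 102 in stimulated vehicle, and 69.8, 66.5 and 67.0 in stimulated Compound 10 libraries. No library of any group overlapped another group for this gene. Stimulation raised Prkca 1.84-fold under vehicle (0.88 ± 0.15, adjusted p = 0.000905) and 1.81-fold with Compound 10 (0.86 ± 0.16, adjusted p = 0.00256). Both calls were lost only with library totals alone (0.10, adjusted p = 0.644, and 0.27, 0.248). The compound lowered Prkca in stimulated cells (-0.56 ± 0.16, adjusted p = 0.0231), a call lost in 8 of 14 alternatives, including upper-quartile scaling (-0.42, 0.0647) and the removal of any of the 5 stimulated libraries (-0.59 to -0.52, adjusted p from 0.0502 to 0.152). In unstimulated cells the value was -0.54 ± 0.16 and missed the threshold (adjusted p = 0.0612), and 4 alternatives called it, the index-run block among them (-0.51, 0.0268).

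Prkcd encodes protein kinase C delta, a calcium-independent isoform best known for restraining B cells and promoting apoptosis (chr14:30595354-30626210, minus strand). Its CPM was 201, 156 and 152 in unstimulated vehicle, 135 and 126 in unstimulated Compound 10, 228 and 204 in stimulated vehicle, and 152, 152 and 154 in stimulated Compound 10 libraries. The compound libraries were the lower ones at both states. The compound lowered Prkcd in stimulated cells (-0.50 ± 0.15, adjusted p = 0.0349), a call lost in 8 of 14 alternatives, including the removal of any of the 5 stimulated libraries (adjusted p from 0.0643 to 0.241), while over protein-coding transcripts only the fall was larger (-0.84, 0.0168). In unstimulated cells the value was -0.38 ± 0.16 (adjusted p = 0.162). Stimulation gave 0.35 ± 0.15 under vehicle (adjusted p = 0.0948, -0.43 with library totals alone, and 0.50 with 0.025 without unstimulated vehicle library 1) and 0.23 ± 0.16 with the compound (0.326, -0.36 with library totals alone). Myeloid markers, whose cells also express Prkcd, summed to 17.9 to 32.1 CPM of library total in unstimulated vehicle, 11.9 to 14.3 in unstimulated Compound 10, 4.42 to 7.14 in stimulated vehicle and 2.26 to 5.76 in stimulated Compound 10 libraries. Of the 10 markers 4 to 9 were detected in a library. Cd68 led the sum in unstimulated libraries, Lyz2 and S100a8 were at or near 0, and the part of these markers in the Prkcd values was not tested.

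The ratio of Prkcq to Prkcd counts was 0.295, 0.500 and 0.392 in unstimulated vehicle, 0.199 and 0.342 in stimulated vehicle, 1.10 and 0.951 in unstimulated Compound 10, and 0.847, 0.931 and 0.940 in stimulated Compound 10 libraries. The theta isoform thus held at most 0.500 counts for each count of the delta isoform in vehicle libraries and close to 1 count in Compound 10 libraries, whatever the scaling.

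Prkch encodes protein kinase C eta, a calcium-independent isoform of the T cell synapse (chr12:73584796-73778185, plus strand). Its CPM was 249, 230.1 and 175 in unstimulated vehicle, 327 and 283 in unstimulated Compound 10, 315 and 314 in stimulated vehicle, and 371, 349 and 318 in stimulated Compound 10 libraries. The unstimulated vehicle libraries were the lowest of the 10. Stimulation raised Prkch 1.44-fold under vehicle relative to the other genes (0.53 ± 0.17, adjusted p = 0.0253), and the direction turned with library totals alone (-0.25). The call was also lost without unstimulated vehicle library 3 (0.39, 0.0539) or stimulated vehicle library 1 (0.52, 0.125) or 2 (0.51, 0.125). Other contrasts did not pass: 0.19 ± 0.17 upon stimulation with the compound (adjusted p = 0.471), 0.14 ± 0.17 with the compound in stimulated cells (0.612) and 0.48 ± 0.17 in unstimulated cells (0.0996), the last called with the index-run block (0.56, 0.00806).

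Prkcb encodes protein kinase C beta, the conventional isoform of B cell receptor signalling (chr7:122288751-122634402, plus strand). It was the lowest member by mean TPM in all 4 groups. On CPM per kilobase of the longest coding transcript Prkcb was the lowest in none of them. It stood at 11.1 there in unstimulated vehicle and 8.48 in stimulated vehicle cells, above Dgkz at 6.43 and 5.48. Its level was 23.5, 42.9 and 30.5 CPM in unstimulated vehicle, 25.99 and 32.9 in unstimulated Compound 10, 24.1 and 25.3 in stimulated vehicle, and 28.5, 30.2 and 43.3 in stimulated Compound 10 libraries. No contrast passed the test, with log2 values of -0.39 ± 0.27 and 0.21 ± 0.27 upon stimulation under vehicle and with the compound, and of 0.46 ± 0.27 and -0.13 ± 0.26 with the compound in stimulated and unstimulated cells (adjusted p = 0.285, 0.628, 0.255 and 0.819). With library totals alone the first was called (-1.17, 0.00522) and the second was -0.38. B cell markers summed to 33.4, 59.2 and 46.4 CPM of library total in the unstimulated vehicle libraries, in the same order as Prkcb there. They summed to 72.4 and 57.0 in unstimulated Compound 10, the reverse of the order of Prkcb, to 44.3, 68.0 and 50.8 in stimulated Compound 10, another order than that of Prkcb, and to 36.1 to 53.0 in stimulated vehicle libraries. Of the 10 markers 6 to 10 were detected in a library, most of the sum was Ighm, Cd79a reached at most 4.59, and Pax5 was at 0 in 7 libraries. The part of B cell RNA in the Prkcb values was not tested.

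**Figure D3:**
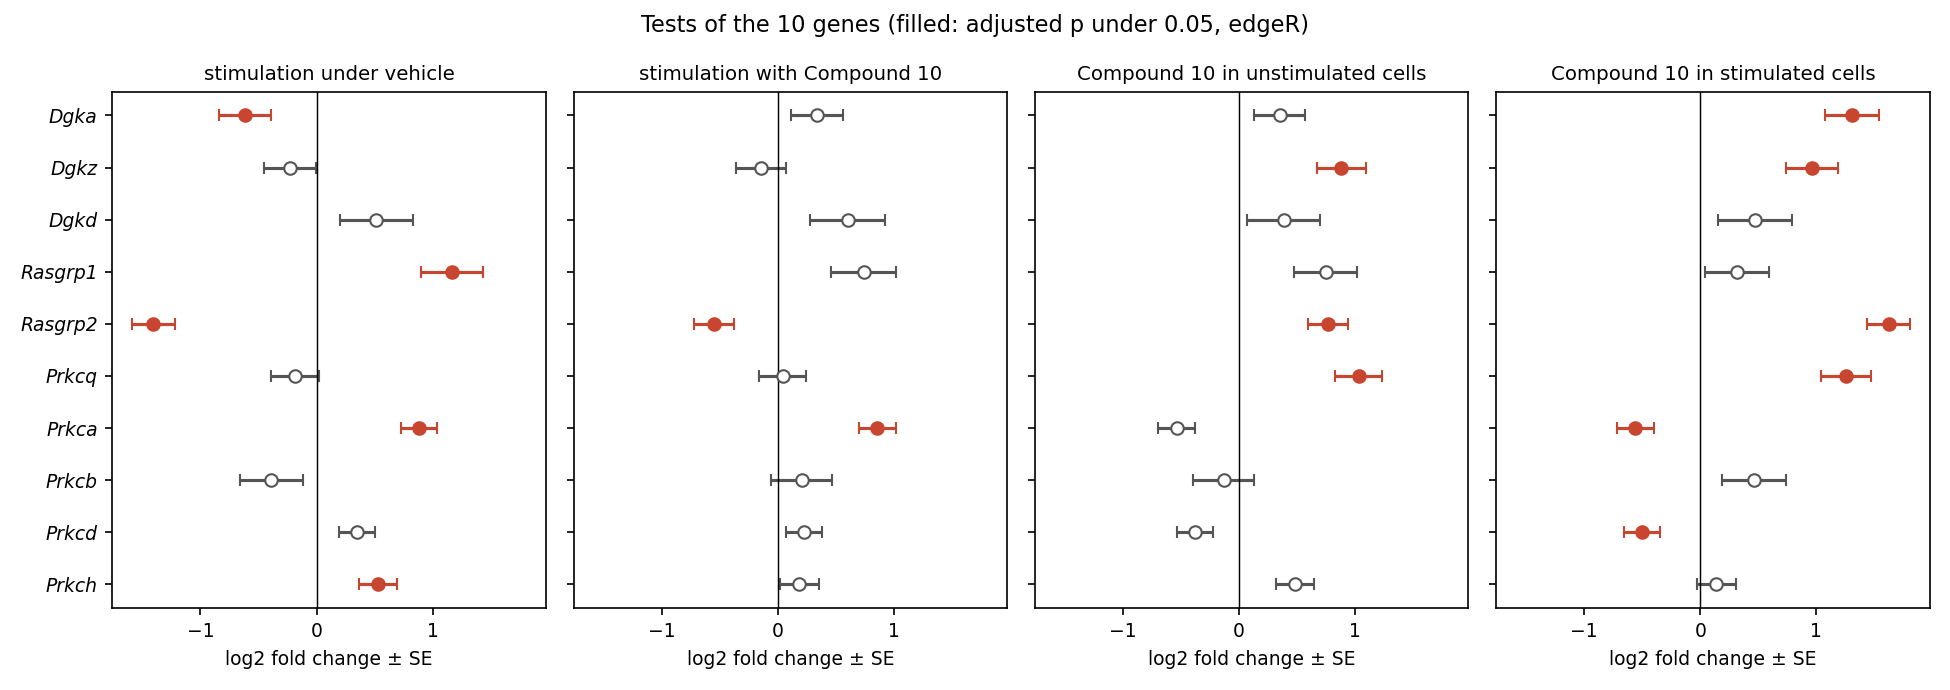
Log2 fold change with its SE (horizontal axis) for each of the 10 genes in the 4 contrasts, from the fit over all libraries with TMM factors; filled points have adjusted p under 0.05. Rasgrp2 has the lowest value upon stimulation under vehicle (-1.41) and the highest with Compound 10 in stimulated cells (1.62), and with library totals alone the Prkch rise upon stimulation under vehicle (0.53) turns to -0.25, while the uncalled values of Dgkd and Prkcd there turn to -0.27 and -0.43.

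Counted over the 10 genes, stimulation under vehicle called 5 (3 higher, 2 lower), against 39% of all genes tested, so the share of the set was near the background. With the compound present stimulation called 2 (Prkca higher, Rasgrp2 lower), against 26.5% of all genes, also near it. Compound 10 called 6 in stimulated cells (Dgka, Dgkz, Rasgrp2 and Prkcq higher, Prkca and Prkcd lower), against 23.2% of all genes. It called 3 in unstimulated cells (Dgkz, Rasgrp2 and Prkcq, all higher), against 8.43%. The median log2 fold change of the 10 with the compound was 0.47 in stimulated and 0.43 in unstimulated cells, beside 0.04 and 0.00 over all genes. The members were chosen with earlier results of these data known, so shares and medians above the background are descriptions and no test of the pathway. Libraries of the groups did not overlap for 7 of the 10 upon stimulation under vehicle (62.5% of all genes), 5 upon stimulation with the compound (50.4%), 8 with the compound in stimulated cells (54.6%) and 7 in unstimulated cells (37.9%). The count in stimulated cells fell to at most 4 with any stimulated library left out, as Prkca and Prkcd lost their calls each time. Over all genes 2541 to 3000 were called without a stimulated Compound 10 library, in place of 3350. In unstimulated cells the count fell to 1 without vehicle library 1 or 2, where 556 and 615 of all genes were called in place of 1215. It also fell without either unstimulated Compound 10 library, which leaves 1 in that group. The 3 genes called in both states were Dgkz, Rasgrp2 and Prkcq, and the stimulated and unstimulated contrasts share no library. Their tests do share 1 estimate of spread over all 10 libraries, so the calls in the 2 states are not independent. With only the unstimulated groups in the fit, 0 members were called (edgeR adjusted p = 0.0826 for Dgkz, 0.0616 for Rasgrp2 and 0.0583 for Prkcq).

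Whether the compound's effect differed between states was tested as the interaction, which called 0 of the 10 with edgeR, against 6.63% of all genes (2.55% higher, 4.08% lower), with 2 at an unadjusted p under 0.05 and 2 called by DESeq2. These were Rasgrp2, with 0.86 ± 0.25 more of a rise in stimulated cells (adjusted p = 0.0641), and Dgka, with 0.96 ± 0.31 (adjusted p = 0.0951). Over 18 alternatives the Rasgrp2 interaction was called in 6 (adjusted p from 0.0178 to 0.274) and that of Dgka in 5 (0.00701 to 0.32). The other 8 ranged from -0.43 (Rasgrp1) to 0.59 (Prkcb) with adjusted p of 0.405 or more. On simulated counts the interaction test recovered only 8% of 2-fold and 66% of 4-fold changes. The count of 0 thus does not show that the compound's effect was the same in both states. Index numbers in the deposited file labels place the libraries in 3 runs of numbers, whose meaning is not given in the sources used here. With these runs as a block the counts called were 5 and 4 upon stimulation under vehicle and with the compound, 8 and 7 with the compound in stimulated and unstimulated cells, and 2 for the interaction. The block also raised the calls over all 14417 genes, to 6457 and 4679, 4595 and 2403, and 2167 in that order. Without it these were 5617 and 3816, 3350 and 1215, and 956. Within the runs that hold both stimulated groups, the compound's log2 differences were 1.44 and 1.26 for Dgka, 0.71 and 0.83 for Dgkz, 1.75 and 1.28 for Rasgrp2, 1.50 and 1.02 for Prkcq, -0.49 and -0.61 for Prkca, and -0.59 and -0.43 for Prkcd. For these 6 called genes no stimulated Compound 10 library overlapped a stimulated vehicle one. The direction within runs was therefore fixed in advance, and these values only describe its size.

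Most members have several annotated transcripts, and kallisto's split of reads among them is an estimate. Prkch has a coding transcript (Prkch-201) and a processed transcript without a reading frame (Prkch-202, 3055 bases). Prkch-202 took 2.3% to 3.4% of the gene's TPM in unstimulated vehicle, 1.9% to 2.6% in unstimulated Compound 10, 14.1% to 15.9% in stimulated vehicle and 4.8% to 6.4% in stimulated Compound 10 libraries. The share was highest in both stimulated vehicle libraries, with no overlap with another group, and the coding share of Prkch counts averaged 86.9% there and 95.3% or more elsewhere. For Rasgrp1, the retained-intron transcript Rasgrp1-202 (1260 bases) took 20.4% to 41.2% of TPM in unstimulated vehicle, 16.7% to 23.3% in unstimulated Compound 10, 24.2% to 30.8% in stimulated vehicle and 40.9% to 69.4% in stimulated Compound 10 libraries. The main coding transcript Rasgrp1-207 averaged 50.5% ± 12.8 (SD, n = 2) in stimulated vehicle and 19.98% ± 13.3 (n = 3) in stimulated Compound 10 libraries. TPM weights a short transcript more than counts do: coding transcripts held 90.6% to 93.2% of Rasgrp1 counts in stimulated vehicle and 66.5% to 86.6% in stimulated Compound 10 libraries.

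For Prkcd, protein-coding transcripts held 69.1% of counts on average in unstimulated vehicle, 51.3% in unstimulated Compound 10, 63.1% in stimulated vehicle and 50.5% in stimulated Compound 10 libraries. For Dgkz they averaged 26.3%, 31.0% and 27.1% in the first 3 of these groups and 48.1% in stimulated Compound 10 libraries, with single libraries between 19.7% and 67.8%. Much of the Dgkz signal therefore came from retained-intron and nonsense-mediated decay transcripts, and its gene-level level is not a level of coding RNA. Dgka has a single transcript in the tables, and at least 94.5% of Dgkd and 85.7% of Prkcb counts were coding in every library. These shares were not tested.

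**Figure D4:**
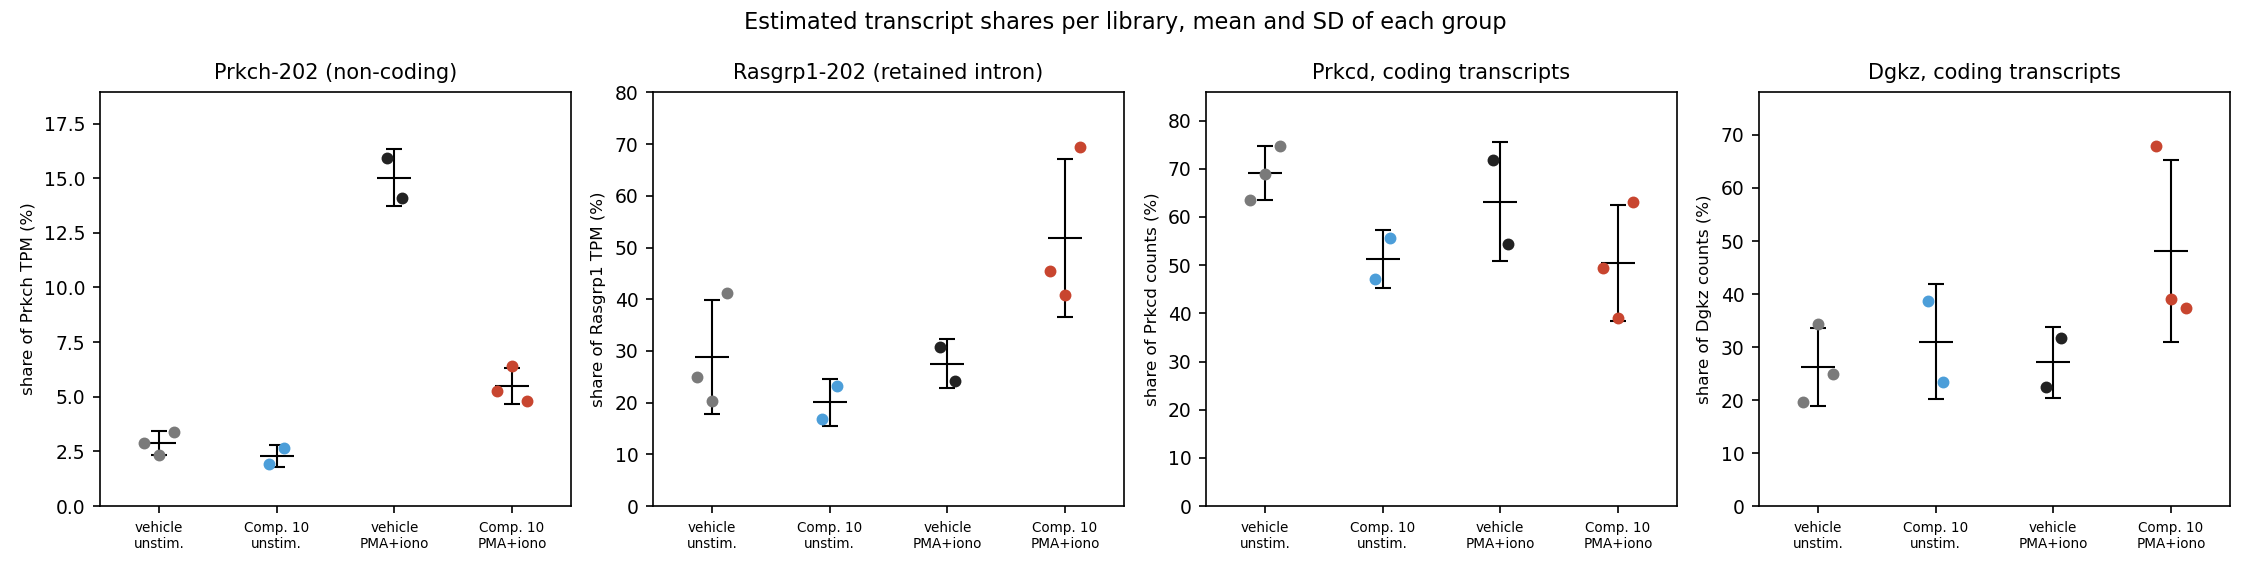
Percent of a gene's TPM held by Prkch-202 and by Rasgrp1-202, and percent of the counts of Prkcd and Dgkz that fall on protein-coding transcripts (vertical axes), in each library by group; points are libraries and bars are means with SD. Prkch-202 reaches 14.1% to 15.9% in stimulated vehicle libraries and at most 6.4% in all others.

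Around the 10 genes, 99 other genes of the pathway were listed in 10 groups, of which 83 passed the filter. Stimulation under vehicle called 25 higher and 13 lower (19.5% and 19.4% of all genes tested), a split that became 11 and 37 with library totals alone. The compound called 20 higher and 7 lower in stimulated cells (10.4% and 12.8% of all genes) and 12 higher and 2 lower in unstimulated cells (4.65% and 3.78%). The median of the 83 with the compound was 0.02 in stimulated cells, beside 0.04 over all genes. In stimulated cells 11 were called without stimulated vehicle library 1, and 11 without library 2, in place of 27.

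Of 12 tested genes that make diacylglycerol, stimulation called 3 higher and 3 lower and the compound 4 higher and 1 lower in stimulated cells. Plcg1, phospholipase C gamma 1 of the T cell receptor, averaged 158 CPM in unstimulated vehicle, 80.4 in stimulated vehicle and 201 in stimulated Compound 10 cells, and rose with the compound (1.32 ± 0.24, adjusted p = 0.00236). Lpin1, a phosphatidic acid phosphatase that regenerates diacylglycerol, averaged 50.4, 28.6 and 62.1 CPM in the same groups (1.12 ± 0.18, adjusted p = 0.00139). Both averages were lower in stimulated than in unstimulated vehicle cells (for Lpin1 -0.81 ± 0.18, adjusted p = 0.0042, edgeR). For these genes and for others named below, both comparisons use the same stimulated vehicle libraries. Opposite directions upon stimulation and with the compound are therefore not separate findings. Of 4 tested other diacylglycerol kinases, none rose with stimulation and 1 fell, Dgke (-0.74 ± 0.21, adjusted p = 0.0166), a call lost without stimulated vehicle library 2 (-0.55, 0.167) and over protein-coding transcripts only (-0.71, 0.078). The compound raised 2 of the 4 in stimulated cells, Dgke (0.77 ± 0.21, 0.0232) and the low Dgkh (1.74 ± 0.43, 0.0133), and both calls were lost with a library left out (Dgke without stimulated vehicle library 2 at 0.57 or Compound 10 library 1 or 2 at 0.62 and 0.77, and Dgkh without stimulated vehicle library 1 at 1.24). Of 9 tested genes that consume diacylglycerol by other routes, stimulation called 3 higher and 2 lower and the compound 1 higher, Dgat1 of triglyceride synthesis (0.81 ± 0.16, adjusted p = 0.00362).

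Of 7 adaptors and kinases upstream of phospholipase C, stimulation called 4 higher and 1 lower. Lcp2, which encodes the adaptor SLP-76, averaged 30.0 CPM in unstimulated vehicle and 278 in stimulated vehicle cells (3.21 ± 0.22, adjusted p = 1.11e-06). Grap2, which encodes its partner GADS, averaged 18.7 and 8.82 CPM in these groups, and 53.6 in stimulated Compound 10 cells, a 6.02-fold rise with the compound (2.59 ± 0.27, adjusted p = 0.000109). Zap70, the kinase recruited to the receptor, rose with stimulation (1.63 ± 0.15, 1.06e-05) and fell with the compound in stimulated cells (-0.70 ± 0.15, 0.00689), the latter call lost without stimulated vehicle library 1 (-0.68) or 2 (-0.70).

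Of 4 other RasGRP and protein kinase C genes, stimulation called 1, Prkcz, lower (-0.93 ± 0.25, adjusted p = 0.0127) and the compound called the same gene higher in stimulated cells (1.13 ± 0.26, 0.00814), both lost without stimulated vehicle library 1 (-0.65 and 0.84). Of 5 other C1-domain genes, Prkd2, a protein kinase D activated by protein kinase C, fell upon stimulation from 148 to 45.4 CPM (-1.70 ± 0.24, adjusted p = 0.00023). Prkd2 was the 1 call of that list, and the compound called 2 higher in stimulated cells, Chn2 (1.44 ± 0.30, 0.00516) and Prkd2 (0.79 ± 0.24, 0.0313). Chn2 lost its call without stimulated vehicle library 1 (1.31) and Prkd2 without either vehicle library (0.62 and 1.00) or Compound 10 library 1 or 3 (0.80 and 0.70). Of 17 genes from Ras to ERK, stimulation called 5 higher and 1 lower and the compound 4 higher and 2 lower. Ksr1, a scaffold of the cascade, rose upon stimulation (1.67 ± 0.19, 3.81e-05) and fell with the compound in stimulated cells (-1.03 ± 0.19, 0.00244), while Araf rose with it (0.98 ± 0.18, 0.00223).

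Of 10 genes from protein kinase C theta to NF-kB, stimulation called 4 higher and 0 lower, with Malt1 (2.68 ± 0.21, adjusted p = 2.3e-06) and Bcl10 (1.56 ± 0.14, 8.27e-06) at the head. With the compound in stimulated cells 2 were called higher, among them Ikbkb (0.75 ± 0.15, 0.00489, lost without stimulated vehicle library 1 or 2 at 0.77 and 0.74), and 2 lower, among them Traf6 (-0.90 ± 0.22, 0.0123, lost without stimulated vehicle library 1 or 2 at -0.80 and -0.99). Of 9 genes of Rap1 and integrin activation, stimulation called 2 higher and 2 lower and the compound 1 higher. Rap1a, the GTPase that RasGRP2 serves, rose upon stimulation (1.09 ± 0.15, adjusted p = 0.000174, 0.32 with library totals alone) while Rasgrp2 fell. Of 6 genes of protein kinase C maturation, anchoring and substrates, stimulation called 4 higher and 1 lower. Marcksl1, a substrate that binds actin, rose from 87.3 to 622 CPM (2.83 ± 0.19, 8.3e-07) and Phlpp1, the phosphatase that dephosphorylates protein kinase C, fell (-1.44 ± 0.28, 0.00181) and was higher with the compound in stimulated cells (1.41 ± 0.28, 0.00425, lost without stimulated vehicle library 1 at 1.34).

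**Figure D5:**
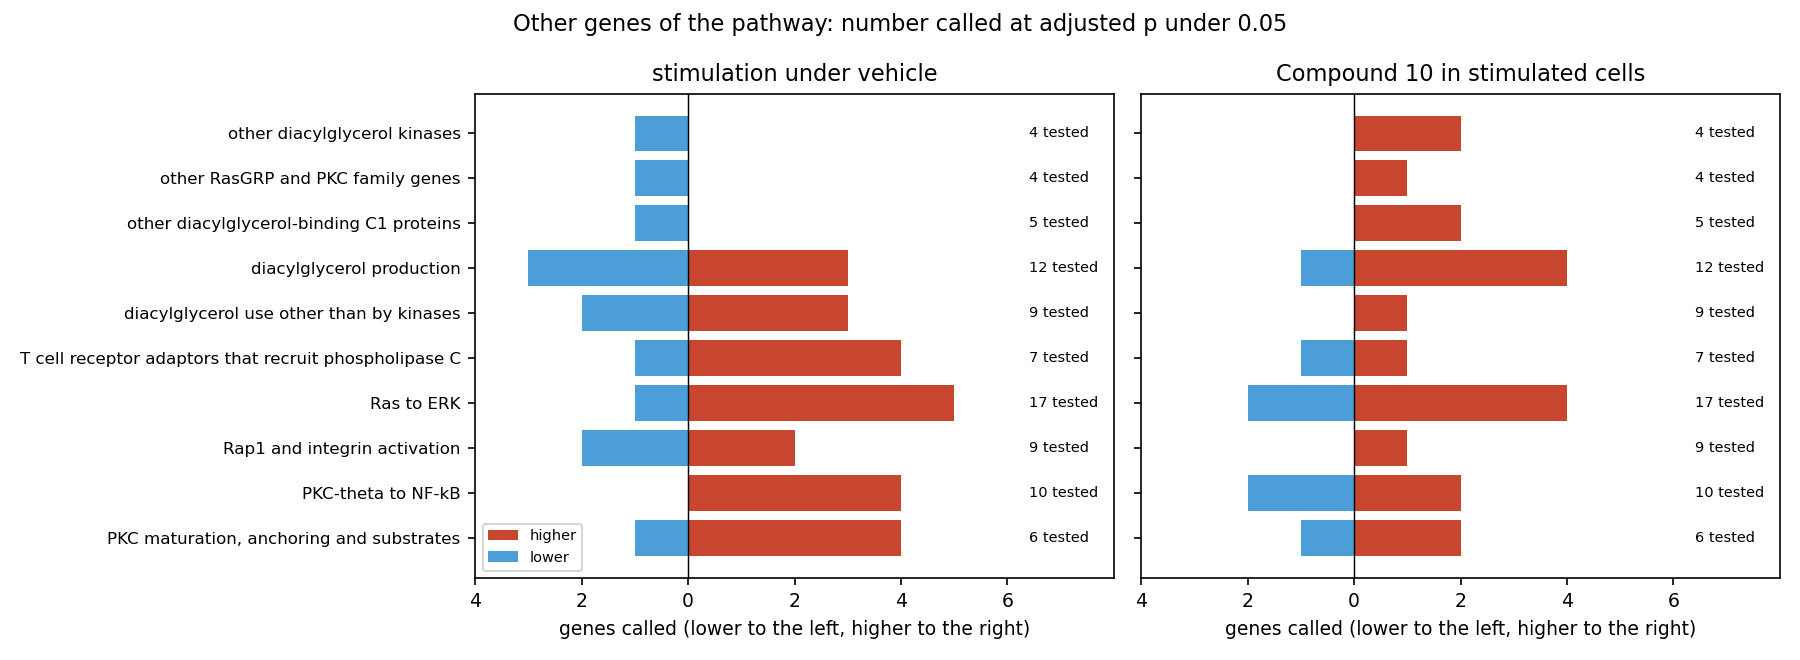
Number of tested genes of each of the 10 pathway lists called higher or lower (horizontal axis), upon stimulation under vehicle and with Compound 10 in stimulated cells, from the fit with TMM factors. Over all lists 25 are higher and 13 lower upon stimulation, and 11 and 37 with library totals alone; with the compound 20 are higher and 7 lower.

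Across the 10 libraries, which share the 4 groups, log2 CPM of some members went together. Rasgrp1 went with Prkch (Pearson r = 0.95) and Dgkd (0.91), Prkcq went with Dgkz (0.92) and Dgka (0.87), and Rasgrp2 went against Prkcd (-0.89) and Prkca (-0.84). Of 7592 candidate genes, those most like Dgka were Cyth1 (r = 0.981), Arhgef1 (0.977) and Carmil2 (0.975). Those most like Rasgrp1 were Nlrc5 (0.981), Atl3 (0.979) and Pdcd11 (0.975), and those most like Prkcq were Sema4a, Araf and Ifi213 (each 0.977). These correlations describe likeness over 10 libraries and carry no test.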

How the data were processed

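RNA of 10 libraries in 4 groups was measured with a SMART-seq kit that does not mark strand, so overlapping antisense genes cannot be separated. Trimming with cutadapt and quantification with kallisto on mm10 are named in the submitters' processing notes, without a version for either tool. For each transcript, the estimated counts were deposited by the authors, 1 table per library, per the file headers. The TPM values in the same deposited tables were summed per gene and used for levels between genes and transcript shares only.

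Transcripts were matched to GENCODE M21 (108214 of 109617). The 1403 unmatched ones held 0.507% to 0.671% of counts and were not used. Per gene, estimated counts were added up, rounded and fitted with edgeR 4.0.16 (limma 3.58.1, R 4.3.3) over all 10 libraries, with TMM factors, the filterByExpr filter, the quasi-likelihood F test and Benjamini-Hochberg adjustment over 14417 genes. Genes with adjusted p under 0.05 are called. The SE was derived from the estimate and its F statistic. Alternatives were other scalings, no filter, DESeq2 1.42.0, only the groups compared, blocks, protein-coding transcripts only and each library left out.

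Within groups, all pairs of libraries differed beyond sampling noise (the smallest chi-square over its degrees of freedom was 13.7). On simulated counts of 14417 genes for Compound 10 in stimulated cells the test recovered 28% of 2-fold and 82% of 4-fold changes. Members, lists and the naming rule were chosen with earlier results of these data known. That rule names all members, up to 3 tested genes per pathway list with the smallest adjusted p in stimulation under vehicle and in Compound 10 in stimulated cells, the 3 genes most correlated with Dgka, Rasgrp1 and Prkcq, and markers that move with a member. Marker lists covered T cell identity, B, myeloid, platelet, CD8, NK, erythroid, regulatory and memory or effector T cells. No interval from counting error is given because spread between libraries was used. Promoter windows are from RefSeq. Some items are not reported here.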

Additional observations from a re-analysis of the deposited data

How the results depend on the processing

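Depth limits the low genes, and 2 libraries in a group limit every contrast. The members called were 5 upon stimulation under vehicle, 2 with Compound 10, 6 with the compound in stimulated and 3 in unstimulated cells, and 0 for the interaction. Leaving out 1 library gave 3 to 5, 1 to 2, 3 to 4, 0 to 4 and 0 to 1 in that order, and 25 to 43 and 11 to 26 of the other pathway genes in place of 38 and 27. The interaction gave 1 with upper-quartile factors, 1 with library totals, 2 without the filter, 2 with DESeq2 and 1 over protein-coding transcripts. Over all genes these settings called 970 and 841 of 14417, 1448 of 26298, 1649 of 11086 and 836 of 11267. Coding transcripts alone gave 3, 1 and 1 for stimulation under vehicle, stimulation with the compound and the compound in unstimulated cells, and a fit of only the groups compared gave 0 for the last. The same fits called 4529, 3039 and 950 of all 11267 genes, and 122 of 14153. The cause was not tested.

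The labels do not say whether the replicate numbers pair the libraries. Same-numbered libraries correlated at -0.28 to 0.33 over 13 pairs, after the group means were taken out. In a group of 2 libraries such deviations mirror each other, so these correlations cannot decide whether libraries are paired. With the replicate block, 4 members were called upon stimulation with the compound (Dgkd at 0.87, adjusted p = 0.00169, among them), 7 with the compound in stimulated cells (with Dgkd at 0.72, 0.00519), 4 in unstimulated cells and 1 for the interaction, where Dgkz was -0.21 and Prkca 0.090. This block also raised the calls over all 14417 genes, to 4469, 3970, 1631 and 1504 in that order. With a block for index runs (r from -0.05 to 0.46 over 12 pairs), 4 were called upon stimulation with the compound, 7 with the compound in unstimulated cells and 2 for the interaction, where Prkca was 0.014.

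Library totals alone turned Dgkd (-0.27), Prkcd (-0.43), Prkch (-0.25), Dgat1 (-0.13) and Itgb2 (-0.27) upon stimulation under vehicle. They also turned Dgka (-0.26), Prkcq (-0.55), Prkcb (-0.38), Prkcd (-0.36) and Prkch (-0.41) upon stimulation with the compound, and the interactions of Prkca (0.17) and Prkcd (0.065). Over all genes the split upon stimulation under vehicle went from 2814 higher and 2803 lower to 1202 and 6610, and that upon stimulation with the compound from 1844 and 1972 to 810 and 5219. For the compound in stimulated cells the split of 1502 and 1848 became 2090 and 1528 with upper-quartile factors and 1831 and 1525 with library totals. Upper-quartile factors turned the interaction of Prkca (0.072), no filter that of Prkca (0.0073) and Prkcq upon stimulation with the compound (-0.030), and coding transcripts Dgkz (0.45) and Prkcq (-0.016) upon stimulation with the compound and the interaction of Prkca (0.082). With 1 library left out, uncalled values crossed 0: the interactions of Dgkd (-0.19 to 0.40), Dgkz (-0.11 to 0.22), Prkca (-0.13 to 0.081) and Prkcq (-0.048 to 0.59), the compound in unstimulated cells for Prkcb (-0.30 to 0.12), and stimulation with the compound for Prkcq (-0.14 to 0.20) and Prkcb (-0.0064 to 0.36) and under vehicle for Prkcq (-0.55 to 0.085).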
